A study of Drosophila melanogaster with 4 samples.

Results

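The salivary glue genes and new glue genes of Drosophila melanogaster are a set of 10 genes, Sgs1, Sgs3, Sgs4, Sgs5, Sgs7, Sgs8, ng1, ng2, ng3 and ng4. They were found by matching the transcript accessions of the deposited gene table to the NCBI gene symbols of Release 6. Each gene matched 1 row with no other symbol in it, so 10 of the 16198 rows of the table are described. Of these 10 rows, 9 had been tested by the authors, and ng4 had not. The members were listed by name and not by a rule on their values, but with earlier results of these data known. Positions below are on Release 6, counted from 1.

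The study compared polyadenylated RNA of whole larvae of the third instar at 100 h after egg laying, reared at 25 °C. One group was labelled wildtype (2 libraries, strain not given) and the other was labelled homozygous for kr-h1[7], an allele of the gene for the zinc-finger transcription factor Kr-h1 (2 libraries). The authors combined the libraries of each group into 1 FPKM value per gene (fragment number corrected for the length of the transcript and the size of the library), so the values below have no error between replicates. Kr-h1 itself was listed at 2.98 FPKM under the wildtype label and at 9.79 FPKM under the mutant label. The targeted gene thus had the higher level in the group labelled as its mutant, and the groups are called by their labels here. A mutant allele can still be transcribed, and an exchange of the labels was not tested. With exchanged labels every direction given below would turn, and ng1, for example, would be 2.64-fold lower. The sex of the larvae is not given in the labels.

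The glue of fly larvae is made in the salivary glands during the third instar, stored in secretory granules and expelled when the puparium forms, which it fixes to a surface. Its genes, the Sgs genes, are switched on by ecdysone through the Broad transcription factors together with the gland's own factor Fork head, and they are shut off again by the later and higher ecdysone pulse. Sgs1, Sgs3 and Sgs4 encode mucin-like proteins with long runs of threonine-rich repeats that carry O-linked sugars, while Sgs5, Sgs7 and Sgs8 encode smaller proteins without such repeats. The new glue genes ng1 to ng4 lie near Sgs4 on the X chromosome and are transcribed in larval salivary glands. Because of this schedule, glue transcripts are commonly used to stage late larvae.

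The members went in different directions in the comparison of mutant-labelled with wildtype-labelled larvae. A gene is called higher or lower where the Cuffdiff q-value in the authors' deposited table is at most 0.05. The new glue genes ng1 and ng3 rose 2.64-fold and 1.61-fold. The glue gene Sgs8 fell 1.31-fold. Of the 9 tested members 2 were thus called higher, 1 lower and 6 not called, beside 13.0% of all 7058 tested loci called, 4.32% higher and 8.73% lower. At a q-value of at most 0.01, where 2.41% of loci were higher and 5.67% lower, ng1 and ng3 were still called and Sgs8 was not. At an unadjusted p of at most 0.05, where 9.93% of loci were higher and 15.9% lower, ng2 was called higher and Sgs5 lower as well.

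Calls in the table were more frequent among abundant genes, and the members were read against loci of like level too. At a mean level of 100 FPKM or more, where 49.3% of tested loci were called, 2 of 4 members were called (Sgs8 and ng3). Between 10 and 100 FPKM, where 14.4% were called, 1 of 4 members was (ng1). Sgs1 was below 10 FPKM, where 4.44% were called, and was not called. At these small numbers the share of members called is close to that of loci of like level.

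**Figure D1:**
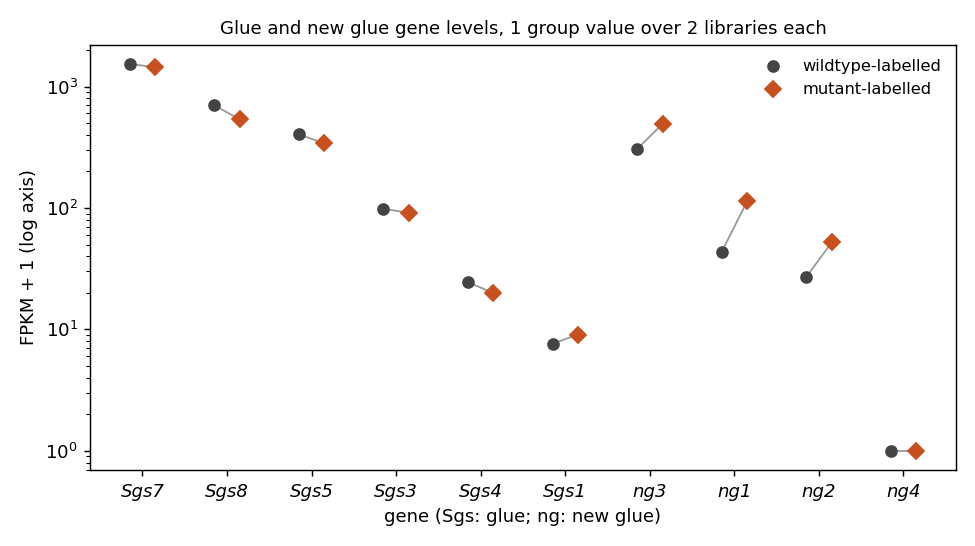
Level of each glue (Sgs) and new glue (ng) gene as FPKM + 1 on a log axis, with 1 value per group over its 2 libraries and no error available. The lines of ng1, ng2 and ng3 slope up from the wildtype-labelled to the mutant-labelled value, those of Sgs8, Sgs5, Sgs3, Sgs4 and Sgs7 slope down, that of Sgs1 slopes up, and ng4 is listed at 0 in both.

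The mucin-like glue genes were the less abundant ones. Sgs3 (CG11720, 3L:11512221-11513402, plus strand, 2 exons) had 97.7 FPKM under the wildtype label and 90.1 FPKM under the mutant label. It was not called (Cuffdiff q-value 0.392 in the authors' deposited table). Sgs4 (CG12181, X:3250089-3251040, plus strand, 1 exon) had 23.5 and 18.9 FPKM, with q = 0.681 in the authors' deposited table. Sgs1 (CG3047, 2L:4937409-4941423, plus strand, 2 exons), the longest glue gene with 3950 nucleotides of exons, had 6.63 and 8.07 FPKM. Its q-value in the authors' deposited table was 0.302, and it was the 1 glue gene whose value was above that of the wildtype-labelled group. The log2 ratios of Sgs3, Sgs4 and Sgs1, taken after adding 1 FPKM to both values, were -0.11, -0.30 and 0.25. The repeats of these genes are known to vary in number between strains, and the sources used here do not say how fragments within repeats were counted.

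The small glue genes carried most of the glue transcript level. Sgs7 (CG18087, 3L:11509861-11510247, plus strand, 2 exons) was the most abundant member, with 1532 FPKM under the wildtype label and 1441 FPKM under the mutant label, ranks 74 and 86 among all rows. It was not called (Cuffdiff q-value 0.577 in the authors' deposited table), and its log2 ratio was -0.09. Sgs8 (CG6132, 3L:11508967-11509394, minus strand, 2 exons) had 699 and 535 FPKM, a log2 ratio of -0.38, and was called lower (q-value 0.0237 in the authors' deposited table). Sgs5 (CG7596, 3R:17595362-17596112, plus strand, 3 exons) had 403 and 339 FPKM, a log2 ratio of -0.25, and was not called, with an unadjusted p of 0.0122 and q = 0.0765 by Cuffdiff in the authors' deposited table. Sgs7 and Sgs8 together made up 80.8% of the summed FPKM of the 6 glue genes under the wildtype label and 81.2% under the mutant label.

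Sgs7, Sgs8 and Sgs3 form a cluster on 3L. Sgs8 and Sgs7 are divergently transcribed with 466 bases between them, and Sgs3 lies 1973 bases beyond Sgs7. Within the cluster the ratio of the Sgs7 to the Sgs3 level was 15.7 under the wildtype label and 16.0 under the mutant label, and that of Sgs7 to Sgs8 was 2.19 and 2.69. These ratios do not depend on how the libraries were scaled, and the difference between the groups in them was not tested. The nearest row on the far side of Sgs8, CG33500, and CG33272 between Sgs7 and Sgs3 were listed at 0 in both groups. The rows next to Sgs3 on its other side were not called where tested, namely CG7394 (16.3 and 19.2 FPKM) and the joint row of CG11714, Fuca and Mob2 (25.5 and 21.0 FPKM), and CG7512 (0.195 FPKM and a listed 0) and mir-4968 (listed at 0 in both) were not tested.

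Levels of the short genes are less certain than those of the long ones. Per the labels' protocols the cDNA was sheared to an insert of 320 bp. Sgs7 has 321 nucleotides of exons and Sgs8 has 359, so their transcripts are hardly longer than the insert, and a value per kilobase then depends strongly on how the authors' software corrected for length. Multiplied by exonic length, the level of Sgs7 was 492 FPKM × kb in wildtype-labelled larvae, beside 108 FPKM × kb for Sgs3. On this scale Sgs7 was still first. Sgs7 and Sgs8 had 492 and 251 of the 1155 FPKM × kb summed over the 6 glue genes, a smaller share than by FPKM. Sgs5 (256 FPKM × kb) came before Sgs8 (251 FPKM × kb). Sgs1 (26.2 FPKM × kb) came before Sgs4 (22.3 FPKM × kb). Both are in reverse of their order by FPKM. The scale follows the number of fragments only where the software divided by a length near the exonic one, which is not known. Exonic length cancels in the ratio between the groups for 1 gene. A correction that differed between the groups would not cancel, which bears most on Sgs7 and Sgs8.

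The 3 detected new glue genes all had higher values under the mutant label, and 2 of them were called. ng1 (CG10781, X:3242412-3242934, plus strand, 1 exon) had 42.5 FPKM under the wildtype label and 112 FPKM under the mutant label. It was called higher, with a log2 ratio of 1.38 and q = 0.00163 by Cuffdiff in the authors' deposited table. Of all tested loci 3.51% had a higher ratio than ng1. ng3 (CG10788, X:3241491-3242084, minus strand, 1 exon) was the most abundant new glue gene, with 305 and 491 FPKM. It was called higher too, with a log2 ratio of 0.69 and q = 0.000889 in the authors' deposited table. This is the smallest value in that table, and many loci share it.

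ng2 (CG14266, X:3240026-3240571, minus strand, 1 exon) had 26.0 FPKM under the wildtype label and 51.0 FPKM under the mutant label, a log2 ratio of 0.94. It was not called (unadjusted p = 0.0301 and Cuffdiff q-value 0.141 in the authors' deposited table), although its ratio was larger than that of ng3. ng2 and ng1 are closely related genes, and fragments may have been divided between them, which leaves the value of each less certain than their sum. The level of ng1 was 1.63 times that of ng2 under the wildtype label and 2.20 times under the mutant label. ng4 (CG10789, X:3243954-3244220, minus strand, 1 exon) was listed at 0 in both groups and was not tested. It has 267 nucleotides of exons, less than the insert of 320 bp. Of the 777 rows with 1 gene of at most that length, 94.3% were listed at 0 in both groups, against 17.8% of rows with a gene over 600 nucleotides, so the 0 does not show that ng4 was silent.

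**Figure D2:**
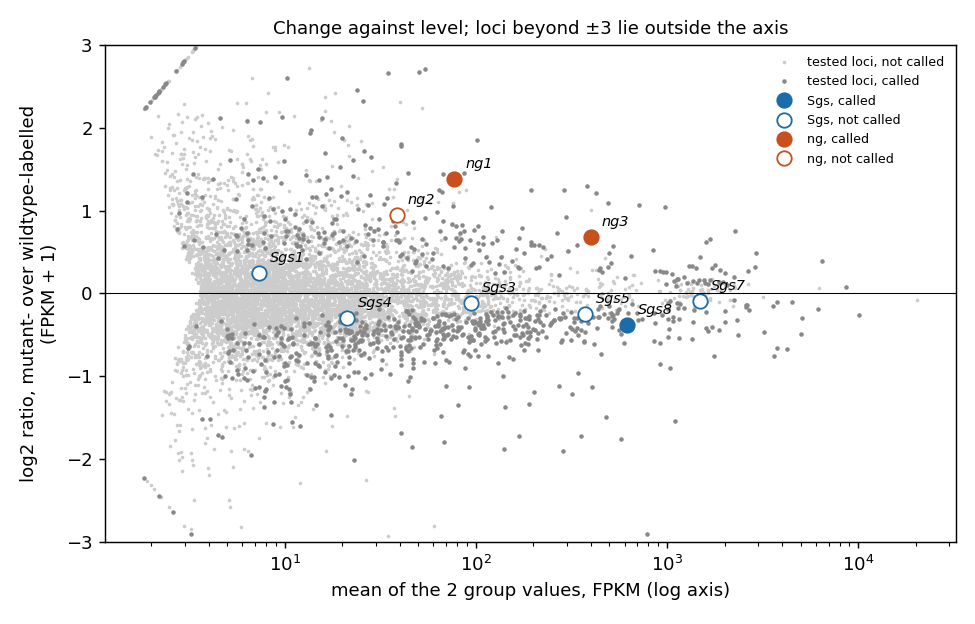
Log2 ratio of mutant-labelled over wildtype-labelled FPKM (1 added to each) against the mean of both values on a log axis, for all tested loci (grey) and the 9 tested members (large points, filled where called). ng1, ng2 and ng3 lie between 0.69 and 1.38, and the Sgs genes between -0.38 and 0.25.

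The 2 families did not overlap in their ratios. The 6 glue genes had log2 ratios from -0.38 to 0.25 with a median of -0.18, and 5 of 6 were below 0. The 3 tested new glue genes ran from 0.69 to 1.38 with a median of 0.94. Of all tested loci 10.4% had a ratio above that of ng3, and 26.4% had one above that of Sgs1. The 3 new glue genes are neighbours on the X chromosome, and CG14265 beside them, not a member, had a log2 ratio of 1.25. The median over all tested loci was -0.03. With 1 value per group and gene, the difference between the families could not be tested.

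The share of the new glue genes in the members' sum was larger under the mutant label. The summed level of the glue genes was 2761 FPKM under the wildtype label and 2433 FPKM under the mutant label, and that of the new glue genes was 373 and 654 FPKM. The new glue genes made up 11.9% of the sum of all members under the wildtype label and 21.2% under the mutant label. ng3 had 0.436 times the level of Sgs8 under the wildtype label and 0.917 times under the mutant label. Against Sgs5 it went from 0.757 times to 1.45 times, so the order of ng3 and Sgs5 differed between the groups. All members together held 0.554% of the FPKM total under the wildtype label and 0.568% under the mutant label.

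In both groups the order of the glue genes by FPKM was Sgs7, Sgs8, Sgs5, Sgs3, Sgs4 and Sgs1, and that of the new glue genes was ng3, ng1 and ng2. With no values per library, which neighbours in these orders differ beyond the spread between libraries could not be judged. The most abundant member was 231 times the level of the least abundant glue gene under the wildtype label and 179 times under the mutant label.

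Sgs4 and the new glue genes lie together inside dnc, the dunce gene for a cyclic AMP phosphodiesterase. In Ensembl release 115 each of ng1, ng2, ng3, ng4 and Sgs4 falls in an intron of 4 of the 17 dnc transcripts and overlaps no dnc exon. The deposited table gives all 5 the position of the whole bundle of overlapping transcripts (X:3176440-3348400), which holds 10 rows, so the positions of these 5 genes above are those of the NCBI annotation. The positions of the other 5 members in the table were identical to that annotation. The sources used here do not say how fragments were assigned among the rows of the bundle, and with shared rows left out 0 members are called higher. dnc itself had 8.86 and 6.83 FPKM and was not called (Cuffdiff q-value 0.350 in the authors' deposited table).

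Genes at the 2 ends of this stretch had ratios of opposite sign, none of them called. CG14265, which lies 3339 bases to the left of ng2, had 52.5 FPKM under the wildtype label and 126 FPKM under the mutant label, a log2 ratio of 1.25. It was not called, with an unadjusted p of 0.0105 and q = 0.0685 by Cuffdiff in the authors' deposited table. ng2, ng3 and ng1 follow within 2.91 kb of the left end of ng2. Beyond ng4 lie Pig1, the pre-intermoult gene of the salivary gland (37.7 and 33.9 FPKM, log2 ratio -0.15, q-value 0.805 in the authors' deposited table), and Sgs4, 7154 bases from ng1. The level of ng1 was 1.81 times that of Sgs4 under the wildtype label and 5.92 times under the mutant label. The bundle's other rows, CG10793 (0.546 and 1.68 FPKM) and lncRNA:CR44886 (listed at 0 in both), were not tested.

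**Figure D3:**
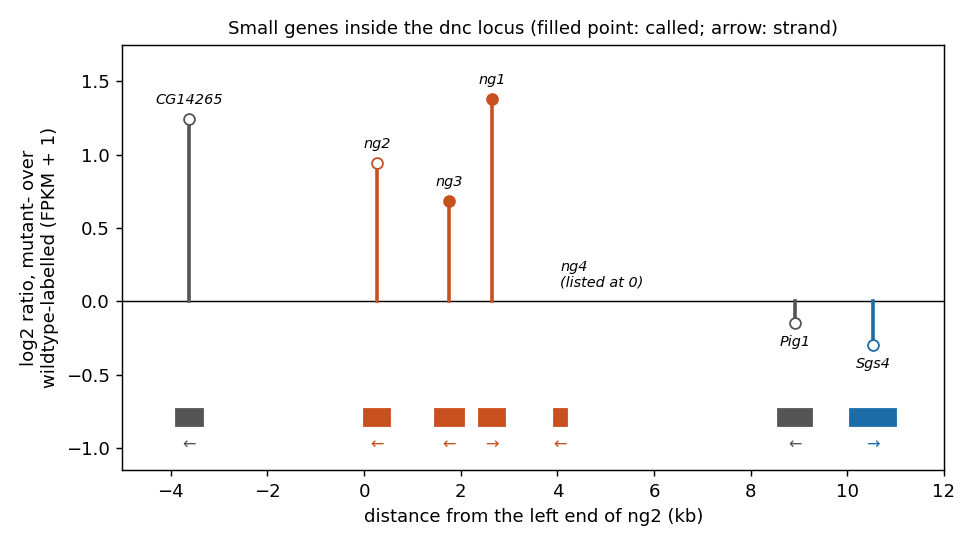
Log2 ratio of mutant-labelled over wildtype-labelled FPKM (1 added to each) for the small genes around the new glue genes, placed by distance in kb from the left end of ng2, with gene bodies drawn to scale underneath and arrows for the strand. Ratios from CG14265 to ng1 are between 0.69 and 1.38, and those of Pig1 and Sgs4 are -0.15 and -0.30, with filled points for the called genes ng1 and ng3.

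The rows next to Sgs5 and Sgs1 were not called or not tested. Sgs5bis, a neighbour of Sgs5 with 304 bases between them, had 31.5 FPKM under the wildtype label and 28.6 FPKM under the mutant label and was not called (Cuffdiff q-value 0.824 in the authors' deposited table). Sgs5 was 12.8 times as abundant as Sgs5bis under the wildtype label and 11.9 times under the mutant label. CG7606 on the other side of Sgs5 had 28.8 and 31.3 FPKM and was not called. Next to Sgs1, hoe2 (2.16 and 3.25 FPKM) and synr (listed at 0 in both) were not tested, and mRpL24 (22.7 and 17.1 FPKM) was not called.

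The tested loci nearest to Sgs7 in their 2 group values, by distance on the log2(FPKM + 1) scale, were the ribosomal protein genes RpL9 (1522 and 1465 FPKM, distance 0.02) and RpL32 (1529 and 1495 FPKM, distance 0.05) and the elongation factor gene eEF2 (1587 and 1448 FPKM, distance 0.05). Likeness over 2 values describes only a similar level and ratio.

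None of the genes that mark the salivary gland was called, and its transcription factors sage, CrebA and fkh had similar values in both groups. The gland-specific bHLH factor gene sage had 17.9 FPKM under the wildtype label and 17.7 FPKM under the mutant label, and CrebA, a bZIP factor that raises secretory capacity, had 12.2 and 12.5 FPKM. fkh, which encodes Fork head, had 2.38 and 2.55 FPKM and was not tested. Scr, the Hox gene that specifies the gland in the embryo, had 0.767 and 0.574 FPKM and was not tested either. The prolyl hydroxylase subunit genes named for the gland had values on opposite sides, with PH4alphaSG1 at 2.82 and 5.80 FPKM and PH4alphaSG2 at 14.2 and 9.02 FPKM. Of 7 markers 5 were tested, 0 were called in the Cuffdiff results, and 2 had an unadjusted p under 0.05 (PH4alphaSG1 and PH4alphaSG2). By level, 4.44% of all tested loci under 10 FPKM were called, the class of PH4alphaSG1. Between 10 and 100 FPKM, the class of the other tested markers, 14.4% were called. At these shares 0 of 5 is close to what loci of like level show. The markers summed to 62.5 and 60.1 FPKM, and the part of gland size in the members' values was not tested. In RNA of whole larvae, a larger gland and more RNA per gland cell cannot be told apart.

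Among other secreted proteins of the gland, Eig71Ee was lower. Eig71Ee, a mucin-like protein known from the glands, the gut and the haemolymph clot, fell 1.38-fold from 146 to 106 FPKM (Cuffdiff q-value 0.000889 in the authors' deposited table). Of the 3 genes on this list, 1 was called lower (Eig71Ee), 0 higher, and Sgs5bis and Pig1 were not called. Eig71Ee lies above 100 FPKM, where 49.3% of tested loci were called in either direction. Sgs5bis and Pig1 lie between 10 and 100 FPKM, where 14.4% were called. The other 10 genes of the 71E cluster, which are switched on in the glands after puparium formation, were all listed at 0 in both groups and were not tested. Of these 10 genes 9 have at most 600 nucleotides of exons. Rows with a gene above the insert length and up to 600 nucleotides were listed at 0 in both groups in 65.6% of cases, so a listed 0 is a weak measurement here as for ng4.

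Genes that modify and store the glue proteins included 3 called genes, all lower, read beside 13.0% of all tested loci called. In mucin-type O-glycosylation, the first step of which adds N-acetylgalactosamine, 1 of 8 tested genes fell and 0 rose. Pgant2 was 1.95-fold lower (13.1 to 6.71 FPKM, q-value 0.00842 in the authors' deposited table). Pgant9, whose product glycosylates Sgs3, had 12.2 and 11.9 FPKM, and the values of Pgant1 (38.1 and 32.1 FPKM) and Pgant7 (24.7 and 21.3 FPKM) were not called. Over the tested genes of the list the log2 ratio had a median of -0.18.

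Among 14 genes of glue granule formation and turnover, 2 fell, 0 rose and 12 were not called, with a median log2 ratio of -0.10. Between 10 and 100 FPKM, the class of most of these genes and of both called ones, 14.4% of tested loci were called in either direction. At this share 2 of 14 is close to what loci of like level show. Rab7, a GTPase of late endosomes that also acts when surplus granules are degraded, fell 1.36-fold (67.0 to 49.2 FPKM, q-value 0.0423 in the authors' deposited table). Chc, the clathrin heavy chain gene, fell 1.16-fold (47.0 to 40.5 FPKM, q-value 0.0434 in the authors' deposited table). Rab11 (75.6 and 80.2 FPKM) and Rab1 (69.9 and 83.5 FPKM), GTPases of recycling endosomes and of transport to the Golgi, were not called. These genes act in all tissues of the larva.

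Hormone-response factors, among them the regulators of glue transcription, held 2 called rows among 9 tested, beside 13.0% of all tested loci. Of these rows 1 is Kr-h1, the targeted gene itself, whose call says nothing about the other factors. br, the Broad gene, had 13.7 and 10.9 FPKM (q-value 0.129 in the authors' deposited table), and crol, an ecdysone-responsive zinc-finger gene, had 13.5 and 11.0 FPKM. EcR, the ecdysone receptor gene, had 7.87 and 8.97 FPKM. The early ecdysone response genes Eip74EF (6.46 and 7.43 FPKM) and Eip75B (7.21 and 6.16 FPKM) were not called. Of 16 listed factors, the 9 tested held 1 called higher (Kr-h1) and 1 lower. The lower row covers usp, the partner of EcR, together with the muscle gene Actn (126 to 93.7 FPKM, q-value 0.000889 in the authors' deposited table), and the values of the 2 genes cannot be separated. Its mean lies above 100 FPKM, where 49.3% of tested loci were called in either direction.

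**Figure D4:**
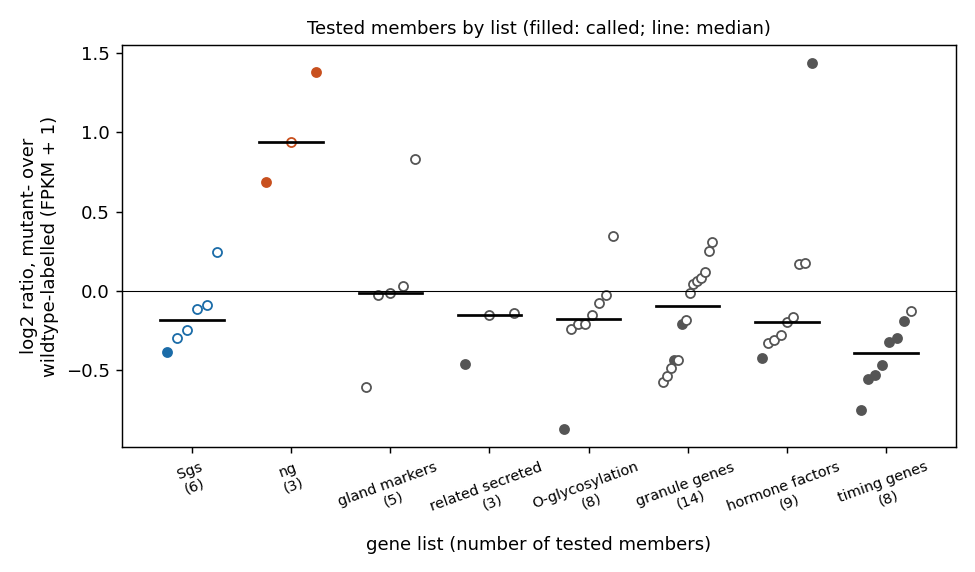
Log2 ratio of mutant-labelled over wildtype-labelled FPKM (1 added to each) for the tested members of the Sgs and ng families and of 6 other gene lists, with filled points for called genes, a line at each median and the number tested in brackets. The ng genes lie at 0.69 and above, the salivary gland markers have a median of -0.01, and the timing genes have a median of -0.39.

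Among the genes that serve to time late larvae, the fat body genes were lower, and Ldh was the only ecdysone-inducible gene called. Of 8 tested timing genes 7 fell and 0 rose. All 7 were above 100 FPKM, the level at which 49.3% of tested loci were called in either direction. The share called lower at that level was not counted, and over all levels it was 8.73%. Of the 7, 6 (all but Ldh) are fat body genes. Fbp2, in a row with CG42847, fell 1.68-fold (4571 to 2716 FPKM), Ldh, the lactate dehydrogenase gene also known as ImpL3, 1.47-fold (248 to 169 FPKM), the larval serum protein receptor gene Fbp1 1.45-fold (201 to 139 FPKM) and the storage protein gene Lsp2 1.38-fold (3733 to 2706 FPKM). ImpL2, which encodes a secreted insulin-binding protein, had 20.3 and 18.5 FPKM and was not called. The ecdysone-inducible genes ImpE1 (0.358 and 1.46 FPKM), ImpE2 (0.454 and 1.71 FPKM) and ImpE3 (2.85 and 3.62 FPKM) had higher values under the mutant label and were not tested. ImpL1 (0.520 and 0.175 FPKM) had the lower value under the mutant label and was not tested either. These lists were chosen with results of the same table known.

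Markers of other tissues moved in the same whole-larva libraries. All 6 fat body markers, 7 of 7 muscle markers and 3 of 6 haemocyte markers were called lower and 0 higher, with summed levels of 23210 and 17936, 8049 and 5824, and 275 and 226 FPKM in wildtype-labelled and mutant-labelled larvae. The fat body markers are the same 6 rows that were counted among the timing genes. Of all tested loci 8.73% were called lower. All 6 fat body markers and 5 of the 7 muscle markers lie at a mean of 100 FPKM or more, where 49.3% were called in either direction. The called haemocyte markers lie below that level. Sr-CI was under 10 FPKM, where 4.44% were called, and crq and PPO1 were between 10 and 100 FPKM, where 14.4% were. PPO2, at 132 and 120 FPKM, was not called. Of 5 midgut markers 2 were called higher and 2 lower, with a summed level of 3012 FPKM under the wildtype label and 1336 FPKM under the mutant label. Most of this sum was Jon99Fi (1630 and 559 FPKM) and epsilonTry (1356 and 726 FPKM). Amy-d, Amy-p and Mal-A1 had higher values under the mutant label, and the median log2 ratio of the 5 was 0.64. The part of tissue composition in the glue and new glue values was not tested.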

How the data were processed

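Per the labels' protocols, polyadenylated RNA of whole larvae was sequenced on a MiSeq with paired ends. TopHat2, Cufflinks and Cuffdiff are named in the submitters' processing notes. The sources used here give neither settings nor genome build nor annotation.

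The deposited Cuffdiff table holds 1 FPKM value per locus and group, made by the authors from 2 libraries. The deposited log2 fold change matched the log2 of these values. The deposited q-value matched a Benjamini-Hochberg adjustment of the deposited p-values over the 7058 tested loci. Cuffdiff's test statistic, a score in the deposited table, was not used. Of the rows, 9135 were not tested and 5 were set aside by the authors. The smallest deposited p-value is 5e-05.

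With no value per library, no replicate error or test could be computed, and depth is unknown. The labels do not say whether libraries came from separate collections of larvae, so the p-values may measure technical spread. Log2 ratios were taken after adding a pseudocount of 1, so changes of low genes are understated. Folds are ratios of FPKM. Of 30529 accessions 30273 (99.2%) matched a symbol. Exonic lengths are unions of exons in Ensembl release 115.

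Members and lists were chosen with earlier results of these data known. From each list up to 4 called genes with the largest ratios and the 2 most abundant genes not called were named, beside the members, their neighbouring rows and the 3 loci nearest to the most abundant member. Other genes (fkh, CrebA, Scr, PH4alphaSG1, Pgant9, EcR, Eip74EF, Eip75B, ImpE1, ImpE2, ImpE3 and ImpL1) were named for their role after their values were seen. The counting of calls was tested on simulated data. Alternatives are given at the end. Scripts ran in Python 3.11.15 with pandas 2.3.3, matplotlib 3.10.9, numpy 2.4.6 and scipy 1.17.1.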

Additional observations from a re-analysis of the deposited data

How the results depend on the processing

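No paired analysis was possible because the table holds 1 combined value per group, and for that reason leaving out libraries was not run. At a q-value of 0.01, 0 members and 0 granule genes were lower. At an unadjusted p of 0.05 the counts were 2 members lower (Sgs5 and Sgs8) and 3 higher (ng1, ng2 and ng3), 1 gland marker lower and 1 higher, 3 hormone factors lower, 1 glycosylation gene higher, and 5 granule genes lower and 1 higher. Over all tested loci that rule called 9.93% higher and 15.9% lower. With rows that share a locus or hold several genes left out, 0 members were higher, because ng1 and ng3 lie in the shared bundle, and 0 hormone factors and 0 glycosylation genes were lower for the same kind of reason, and 5 instead of 7 timing genes were lower, since the rows of Fbp2 and Lsp2 are shared. A pseudocount of 10 gave a median log2 ratio of 0.76 for the ng genes. Without the 20 most abundant other rows the members held 0.693% of the total under the wildtype label and 0.703% under the mutant label. Pseudocounts of 0.1 and 10 and a minimum of 1 FPKM cannot turn the sign of a log2 ratio. Under scaling to equal totals or centring on the median, which move the ratios only slightly, no tested member changed sign. Classes of level as a background were added after the data were seen. Depth is unknown, so how small a difference could be called for the low members Sgs1, Sgs4 and ng2 cannot be stated.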
